A study of Mus musculus with 36 samples.

Results

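The 9 genes described here encode proteins that hold chromosomes together in meiosis or fasten chromosome ends to the nuclear envelope. They were taken by gene symbol: Rec8, Rad21l, Smc1b, Stag3, Sgo2a, Terb1, Terb2, Majin and Sun1, which are 9 of the 56893 genes in the tables of sorted germ cells and 9 of the 55512 in the tables of whole gonads. All 9 were present in both kinds of table. The list was drawn up with earlier results from these data known, so a count over it was set beside the same count over all genes and was given no test of its own.

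Cohesin is a protein ring that clasps sister chromatids from their replication until they separate. Germ cells that enter meiosis swap subunits of the mitotic ring for meiotic ones: the kleisins REC8 and RAD21L take the place of RAD21, SMC1B that of SMC1A, and STAG3 that of STAG1 and STAG2. SGO2, the product of Sgo2a, shields REC8 at centromeres from cleavage when homologous chromosomes separate. TERB1, TERB2 and MAJIN tie telomeres to the inner nuclear membrane, where SUN1 couples them through KASH5 to motors in the cytoplasm, and this movement helps homologs to find each other. In mice, female germ cells start this program in the fetal ovary, whereas male germ cells arrest and start it after birth.

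The data were 36 RNA-seq libraries in 12 groups of 3, and compared fetuses of hyperglycemic dams (intrauterine hyperglycemia, IUHG) with control fetuses. Whole gonads came from E13.5 female fetuses of ICR mice, labelled wild type, and primordial germ cells (PGCs) were sorted as EGFP-positive cells from Oct4-EGFP fetuses, also labelled wild type, at E12.5 with the sexes not separated and at E13.5 and E16.5 from females and males. Dams of the IUHG groups were injected on pregnancy day 3.5 with streptozotocin, a toxin of the insulin-producing islet cells, at a dose of 120 mg/kg, and had blood glucose above 14 mM by day 6.5. Each library was made from pooled fetuses, so a spread between libraries is a spread between pools, and the sort took cells in which the Oct4 reporter was active. Estimated aligned bases ran from 3.89 to 4.95 gigabases in gonad libraries and from 3.25 to 8.32 gigabases in PGC libraries. Levels are in TPM, shares of a library's transcripts after scaling for gene length. Changes are log2 fold changes of TPM + 1, which understate the change of a gene near 0, and were tested with limma, two-sided, with Benjamini-Hochberg adjustment over all genes tested. A gene was tested where its mean reached 1 TPM in at least 1 of the groups compared. To pass, a change had to be more than 2-fold either way with an adjusted p below 0.01 in PGCs or 0.05 in gonads, and an interaction needed an adjusted p below 0.05.

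Markers matched most labels, and 1 library went against its label. The 5 germ cell markers measured (Ddx4, Dazl, Pou5f1, Dnd1 and Mael) summed to between 1849 and 4763 TPM in PGC libraries and to between 392 and 667 TPM in whole gonads, with Dazl or Mael the most abundant. The 4 Y-linked genes summed to at most 0.601 TPM in every female PGC library, to between 78.1 and 183 TPM in male ones and to between 130 and 212 TPM in the E12.5 pools. In the E13.5 female gonads, control replicate 1 held 51.3 TPM of Y-linked transcripts, led by Eif2s3y at 27.5 TPM, while all 4 Y-linked genes were at 0 in the other 5 libraries. The same library held 366 TPM of 5 Sertoli cell markers, led by Amh, against 19.5 to 21.3 TPM elsewhere. Its share of male tissue is unknown. In gonads the calls of all members, and the changes of Rad21l, Terb1, Majin, Smc1b and Rec8, are given with and without it. In E13.5 female PGCs, IUHG replicate 3 stood apart: 16533 genes reached 1 TPM in it, against 14524 to 15288 in the other 5 libraries, and its germ cell markers summed to 4763 TPM, against 3059 to 3557. Changes that passed at that stage are likewise given without it.

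The start sites of the members were searched for sequences bound by regulators of meiotic entry. For 7 of the 9 members RefSeq gave an entry with a promoter sequence, 9 entries in all. Each window ran from 250 bases before the start site to 50 bases after it. The windows below belong to 3 members whose levels differed widely between groups and to the 2 members with a match, and are printed in the direction of the gene from GRCm38.p6. Capitals mark a match, read on either strand, to the motif of STRA8 with MEIOSIN (CNCCTCAG), the E-box of MGA with MAX (CACGTG), an E2F site or a GC box (GGGGCGGGG).
Rec8 (chr14:55617916-55618215, plus strand): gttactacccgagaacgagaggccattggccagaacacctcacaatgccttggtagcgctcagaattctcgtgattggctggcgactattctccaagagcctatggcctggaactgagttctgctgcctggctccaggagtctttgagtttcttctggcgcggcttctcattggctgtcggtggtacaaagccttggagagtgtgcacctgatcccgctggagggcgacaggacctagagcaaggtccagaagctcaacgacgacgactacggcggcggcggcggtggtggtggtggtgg
Rad21l (chr2:151668484-151668783, minus strand): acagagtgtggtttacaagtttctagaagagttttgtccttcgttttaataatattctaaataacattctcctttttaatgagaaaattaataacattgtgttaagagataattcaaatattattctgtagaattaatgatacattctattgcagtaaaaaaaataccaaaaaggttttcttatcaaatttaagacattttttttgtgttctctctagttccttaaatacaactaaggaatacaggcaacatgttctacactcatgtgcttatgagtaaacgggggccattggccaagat
Terb1 (chr8:104509838-104510137, minus strand): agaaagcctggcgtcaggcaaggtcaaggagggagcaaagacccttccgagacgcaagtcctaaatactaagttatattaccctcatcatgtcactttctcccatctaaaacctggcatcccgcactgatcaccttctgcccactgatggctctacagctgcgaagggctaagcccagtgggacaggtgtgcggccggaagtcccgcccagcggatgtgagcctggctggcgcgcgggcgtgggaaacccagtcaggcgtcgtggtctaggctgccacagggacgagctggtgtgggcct
Stag3 (chr5:138280259-138280558, plus strand): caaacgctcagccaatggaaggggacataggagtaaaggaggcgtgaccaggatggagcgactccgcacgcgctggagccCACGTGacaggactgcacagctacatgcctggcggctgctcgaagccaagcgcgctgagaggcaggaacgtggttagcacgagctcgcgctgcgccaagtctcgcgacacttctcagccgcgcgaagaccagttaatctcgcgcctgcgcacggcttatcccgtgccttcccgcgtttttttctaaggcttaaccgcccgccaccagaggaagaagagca
Sun1 (chr5:139200387-139200686, plus strand): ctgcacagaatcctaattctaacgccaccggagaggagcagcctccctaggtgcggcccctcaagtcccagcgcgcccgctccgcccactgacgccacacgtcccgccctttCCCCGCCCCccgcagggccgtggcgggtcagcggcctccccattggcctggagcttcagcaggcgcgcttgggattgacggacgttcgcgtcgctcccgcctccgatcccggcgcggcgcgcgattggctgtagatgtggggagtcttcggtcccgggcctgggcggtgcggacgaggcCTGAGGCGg
Stag3, the meiotic counterpart of STAG1 and STAG2, carried an E-box 170 bases before its start site, as did 7.15% of 32851 promoters. One of the Sun1 entries carried the STRA8 motif on the opposite strand, 42 bases after its start site, a motif present in 7.94% of promoters, and a GC box, present in 11.4%. Rec8, Rad21l, Smc1b, Sgo2a and Terb1 held none of these sequences in the window, which says nothing of sites elsewhere, and Terb2 and Majin had no entry.

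From the E12.5 control pools, which were not separated by sex, to control E13.5 female PGCs, most members rose. The 4 cohesin subunits and the 3 genes that attach telomeres rose, 7 of 9 members, where 25.4% of 15377 genes passed. Majin, the membrane-bound end of the telomere complex, read 0.703, 0.464 and 0.884 TPM in the E12.5 libraries and 75.9, 70 and 77.4 TPM in the E13.5 female ones. Rec8 read 3.92, 3.03 and 3.25 TPM at E12.5 and 88.4, 86.5 and 88.9 TPM at E13.5. Every E13.5 female library stood above every E12.5 library for both genes, by 109-fold and 25.9-fold in the means. The log2 fold changes were 5.49 for Majin (limma, adjusted p = 1.83e-08) and 4.34 for Rec8 (adjusted p = 1.99e-08). Rad21l, the kleisin of early prophase, went from 0, 0.0485 and 0.0229 TPM to 10.7, 10.3 and 13 TPM, a log2 fold change of 3.59. Smc1b went from a mean of 50.9 ± 6.05 (SD, n = 3) to 429.9 ± 22.2 TPM, Terb1 from 1.87 ± 0.627 to 37.3 ± 7.43 TPM, Terb2 from 5.09 ± 1.45 to 40.2 ± 2.7 TPM and Stag3 from 63.2 ± 4.07 to 186 ± 37.9 TPM. Sgo2a, the protector of centromeric cohesin, and Sun1, which also serves somatic nuclei, did not pass: their log2 fold changes were -0.78 and 0.29. The median change of all genes tested was 0.27 in this comparison and 0.12 with median-of-ratios scaling, against a median of 3.06 over the 9 members. The share of each sex in the E12.5 pools was not measured. Their Y-linked transcripts summed to 194 to 212 TPM in controls, against 151 to 183 TPM in E13.5 male controls. Stage and sex cannot be told apart in this comparison.

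Between the same E12.5 pools and control E13.5 male PGCs, 0 of the 7 members tested passed in limma, where 16.2% of 14521 genes did. At an unadjusted p under 0.05 there were 5 of the 7, and 9473 of all genes. Rad21l and Majin stayed under the 1 TPM filter in both groups, with E13.5 male values of 0, 0.198 and 0 TPM for Rad21l and 0.797, 0.877 and 0.602 TPM for Majin. Rec8 read 4.09, 4.37 and 4.05 TPM, just above its E12.5 libraries (log2 fold change 0.24), and the other 6 tested lay between -0.69 for Sgo2a and 0.57 for Smc1b. Set against each other at E13.5, control females stood above control males by the call rule for the same 7 members that rose from E12.5, where 29.8% of 15712 genes passed. The largest gap was that of Majin, at a log2 fold change of 5.42 (adjusted p = 1.2e-08), the other 6 lay between 1.63 for Stag3 and 4.22 for Terb1, and Sun1 (0.65) and Sgo2a (-0.10) did not pass. Both comparisons use the E13.5 libraries already described, and the all-gene median of the female to male one moved from 0.28 to 0.05 with median-of-ratios scaling.

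From E13.5 to E16.5 the transcripts of the meiotic kleisins moved in opposite directions in control female PGCs. Rec8 fell from 88.4, 86.5 and 88.9 TPM to 9.32, 2.42 and 1.27 TPM, and Rad21l rose from 10.7, 10.3 and 13 TPM to 23.3, 29.2 and 48.9 TPM. No library of one stage overlapped the other stage for either gene. Within the E16.5 control libraries the one with most Rec8 had least Rad21l. The E16.5 female IUHG libraries did not share that order. There replicate 1 had most Rec8 and Rad21l (6.47 and 60.2 TPM) and replicate 2 least of both (0.822 and 43.9 TPM). The log2 fold changes were -4.37 for Rec8 (limma, adjusted p = 3.46e-05) and 1.44 for Rad21l (adjusted p = 0.00119). In all, 4 members rose and 1 fell, where 28.2% of 17977 genes passed. The other members that rose were Terb1, from 37.3 to 145 TPM, Majin, from 74.4 to 159.9 TPM, and Smc1b, from 429.9 to 881 TPM, while Terb2 (0.74), Stag3 (0.26), Sun1 (0.15) and Sgo2a (-0.49) did not pass. Smc1b and Majin sat at the fold threshold: with FPKM or median-of-ratios scaling neither passed, and without E13.5 female control replicate 2 Smc1b fell just short of it at 1.00. The filter also decided Rad21l, which did not pass with every gene tested, and the all-gene median was 0.31, or 0.15 with median-of-ratios scaling.

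**Figure D1:**
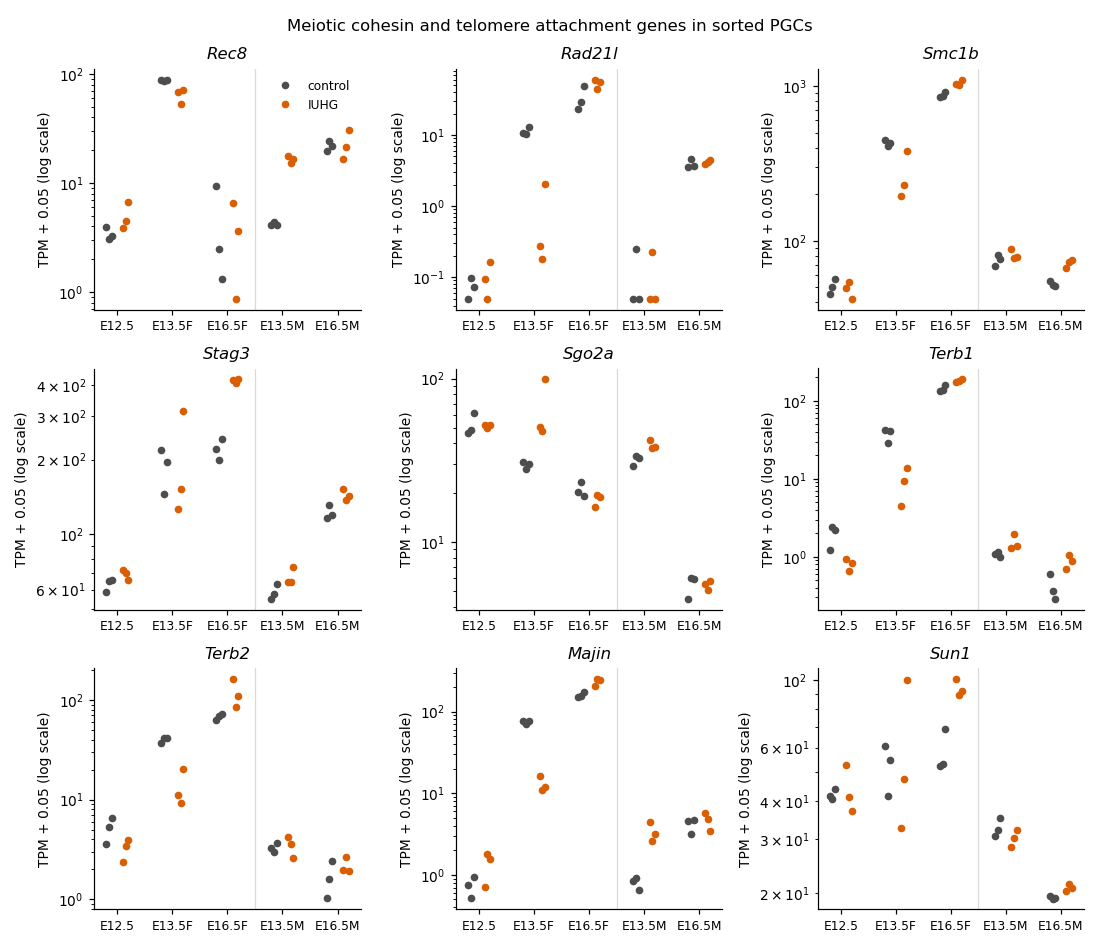
TPM of each member in every PGC library on a log axis, with 0.05 added so that values of 0 can be drawn; columns are stage and sex, gray points control and orange points IUHG libraries, 3 per group. The telomere attachment genes Terb1, Terb2 and Majin were highest in E16.5 females, and in E13.5 females their IUHG libraries lay below all 3 controls.

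Control male PGCs gained Rec8 and Rad21l later. From E13.5 to E16.5, Rec8 rose from 4.09, 4.37 and 4.05 to 19.7, 24.2 and 21.7 TPM (log2 fold change 2.14, adjusted p = 3.9e-07). Rad21l rose from 0, 0.198 and 0 to 3.53, 4.48 and 3.57 TPM, Majin from 0.759 to 4.12 TPM and Stag3 from 58.8 to 123 TPM. Sgo2a fell, from 28.9, 33.7 and 32.6 TPM to 4.43, 5.93 and 5.88 TPM (log2 fold change -2.36), and Smc1b (-0.52), Terb1 (-0.57), Terb2 (-0.73) and Sun1 (-0.73) did not pass. At an adjusted p under 0.05 with no fold threshold all 9 members passed in limma, where 81.4% of 20415 genes did. A change of either kind was thus common to most genes here. By the call rule 4 members rose and 1 fell of 9 tested, a share close to the 51% of 20415 genes that passed. The all-gene median was 0.62, or 0.38 with FPKM. Without E16.5 male control replicate 2, Stag3 fell just short of the fold threshold at 1.00, and it did not pass with FPKM. The E16.5 male control libraries also held 252 to 576 TPM of 6 blood markers, led by Hba-a1, and 42.4 to 188 TPM of 5 fetal Leydig markers, led by Insl3, whose part in these values was not tested.

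At E16.5 the sexes were far apart. Terb1, which links the complex to shelterin, read 133, 139 and 161 TPM in control females and 0.558, 0.31 and 0.24 TPM in control males, and Terb2 read 62.8, 69 and 72.4 TPM in females and 0.966, 1.53 and 2.38 TPM in males. By the call rule 7 members were higher in females and Rec8 was lower, 8 of 9, where 50.9% of 22045 genes passed. All 9 members had groups apart, 8 with females above males, where 75% of genes tested had groups apart in either direction. Log2 fold changes were 6.73 for Terb1, 4.99 for Majin, 4.75 for Terb2, 4.04 for Smc1b, 2.78 for Rad21l, 1.77 for Sgo2a and 1.53 for Sun1, with Stag3 at 0.84 the member that did not pass. The all-gene median here was -0.10, and -0.44 with median-of-ratios scaling. Rec8, at -2.40 (adjusted p = 0.00303), did not pass without female control replicate 2 (adjusted p = 0.0119) or without male control replicate 1, 2 or 3 (adjusted p = 0.0185, 0.0211 and 0.0196), nor with every gene tested.

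Genes listed as markers of other cells also differed between the control PGC groups. Aard, a listed Sertoli gene, read 40.2 to 44.9 TPM in E12.5 control PGCs and 33.2 to 43.2 TPM in E13.5 female ones. In E13.5 female control gonads 2 and 3 it read 12.1 and 11.9 TPM. Pecam1 read 71.9 to 75.7 TPM in the control gonads, below the E12.5 PGCs. A level of Aard or Pecam1 in PGCs therefore does not count Sertoli or endothelial cells. Sertoli markers summed to 52.8 to 58.2 TPM at E12.5, 33.9 to 43.5 and 20.5 to 23.4 TPM in E13.5 and E16.5 females and 105 to 115 and 103 to 132 TPM in E13.5 and E16.5 males, led by Aard or Cst9, and fetal Leydig markers in the same order to 1.48 to 4.32, 1.02 to 2.27, 3.31 to 4.99, 32.8 to 49.1 and 42.4 to 188 TPM. Interstitial markers summed to 5.55 to 7.28, 11 to 16.9, 22.8 to 66.9, 7.61 to 8.61 and 22.2 to 40.7 TPM, blood markers to 0.389 to 2.09, 0.0629 to 37.6, 5.2 to 38.5, 0.911 to 76.2 and 252 to 576 TPM and germ cell markers to 2453 to 2623, 3218 to 3557, 2744 to 3038, 2266 to 2508 and 3687 to 4092 TPM. Pecam1, listed as endothelial, read 122 to 132, 50.4 to 69.1, 8.36 to 17, 46.2 to 52.1 and 5.5 to 5.82 TPM. The genes at 1 TPM or more numbered 13146 to 13379, 14524 to 15036, 16864 to 17096, 13703 to 13904 and 19722 to 19835 per library. The part of these differences in the stage and sex changes of the members was not tested.

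Over the 5 control PGC groups, Smc1b, Terb1, Terb2 and Majin shared one order at the top: E16.5 females, then E13.5 females, then the E12.5 and male groups, with no overlap between those first steps. Rad21l had the same top, and Stag3 and Sun1 had it in their means, with E16.5 and E13.5 females overlapping. For Sun1 the E13.5 females also overlapped the E12.5 libraries. Rec8 was highest in E13.5 females (87.9 ± 1.27 TPM), then E16.5 males (21.9 ± 2.24 TPM), and the E16.5 females (4.33 ± 4.35 TPM) overlapped the E13.5 males. Sgo2a was highest at E12.5 (51.9 ± 8 TPM) and lowest in E16.5 males (5.41 ± 0.85 TPM). Across the 30 PGC libraries, the profiles most like each member's, by Pearson r on log2 of TPM + 1 among 15110 genes, were those of Dlx3 and Shisa8 for Rec8, Mei1 and Zfp541 for Rad21l, Tmx4 and Ltk for Smc1b, and Copb2 and Ints6 for Stag3. They were those of Kif11 and Cdca2, both genes of cell division, for Sgo2a, Dazap2 and Zfp672 for Terb1, Terb1 and Xlr4c for Terb2, 4930524B15Rik and H2-K1 for Majin, and Mtbp and Ogdh for Sun1. The best r ran from 0.923 for Rec8 with Dlx3 to 0.991 for Majin with 4930524B15Rik. These r values describe libraries that fall into groups by stage and sex, and carry no test.

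Rad21, the kleisin of mitotic cohesin, fell in controls from the unsexed E12.5 pools to E13.5 females and again to E16.5 females. It read 66.5, 66.3 and 69.1 TPM at E12.5, 22, 22.3 and 22.3 TPM at E13.5 and 6.84, 8.87 and 6.67 TPM at E16.5 (log2 fold changes -1.56 and -1.47). Of the summed TPM of Rad21, Rec8 and Rad21l, a share computed after the values had been seen, Rad21 made up 94.4% to 95.6% in E12.5 controls, Rec8 71.6% to 73.0% in E13.5 female controls and Rad21l 59.1% to 86.0% in E16.5 female controls. Rad21 made up 86.8% to 88.5% in E13.5 male controls and 65.5% to 71.9% in E16.5 male controls. The other subunits with a meiotic counterpart did not pass at either of these steps. Smc1a means were 57, 46.9 and 48.7 TPM in the same 3 groups, beside 50.9, 429.9 and 881 TPM of Smc1b. Among 13 genes of the nuclear envelope bridge and meiotic telomeres, 11 were tested from the E12.5 pools to E13.5 females. Of these, 5 rose and 1 fell, where 25.4% of all genes passed. Spdya, which brings CDK2 to telomeres, rose from 3.37 to 101 TPM, and Kash5, the cytoplasmic partner of SUN1, from 0.894 to 15.7 TPM. Of 7 shelterin genes, which cap telomeres in all cells, 1 rose, a share below that of all genes.

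**Figure D2:**
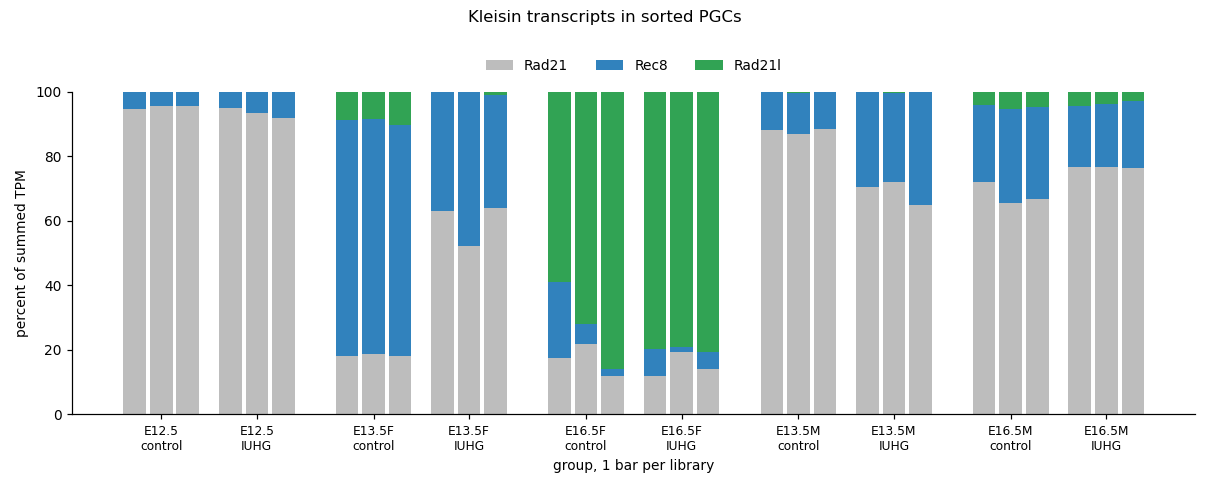
Share of Rad21 (gray), Rec8 (blue) and Rad21l (green) in the summed TPM of these 3 kleisins, in percent from 0, with 1 bar per PGC library. In E13.5 females Rad21 made up 18.0% to 18.7% in the control libraries and 52.0% to 63.9% in the IUHG libraries.

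At E12.5, IUHG and control PGCs did not differ in any member by the call rule: 0 of 8 tested passed in limma, where 0.247% of 13760 genes did. At an unadjusted p under 0.05 there was 1 of the 8, and 2161 of all genes. That member was Terb1, which read 1.15, 2.32 and 2.13 TPM in controls and 0.879, 0.606 and 0.788 TPM in IUHG libraries, without overlap (adjusted p = 0.222). The rest spanned log2 fold changes from -0.52 for Terb2 to 0.43 for Majin, Rad21l was at or below 0.112 TPM and was not tested, and the members' median was 0.01 against 0.04 for all genes. Y-linked transcripts summed to 194 to 212 TPM in controls and 130 to 154 TPM in IUHG pools, led by Eif2s3y, and interstitial markers to 5.55 to 7.28 and 0.66 to 1.37 TPM. Of the Sertoli markers, Cst9 read 9.62 to 12.7 and 0 to 5.21 TPM while Aard, the most abundant, overlapped, Pecam1 alone of the endothelial markers reached 122 to 132 and 146 to 164 TPM, and the part of the mix of sexes and cells in these values was not tested.

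At E13.5, when female PGCs switch on this program, Majin and Rad21l were low in IUHG females. Majin read 75.9, 70 and 77.4 TPM in control libraries and 16.3, 11 and 12 TPM in IUHG libraries. Rad21l read 10.7, 10.3 and 13 TPM in controls and 0.222, 0.132 and 1.99 TPM under IUHG. In both genes all 3 IUHG libraries lay below all 3 controls, by 5.69-fold and 14.5-fold in the means, and replicate 3 was the highest IUHG library for Rad21l. Without it the folds were 5.45 for Majin and 64.1 for Rad21l, so the fold of Rad21l rested on values near 0. Majin fell (log2 fold change -2.44, adjusted p = 0.00123) and so did Rad21l (-2.94, adjusted p = 0.00922), 2 of 9 members, where 0.514% of 16527 genes passed.

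The rest of the telomere complex lay on the same side in E13.5 IUHG females without reaching the PGC threshold. Terb1 read 42.1, 28.8 and 41.1 TPM in controls and 4.45, 9.41 and 13.8 TPM under IUHG, and Terb2 read 37.1, 41.6 and 42 TPM in controls and 11, 9.25 and 20.1 TPM under IUHG. Neither gene had overlapping groups. Their log2 fold changes were -2.00 (adjusted p = 0.0232) and -1.58 (adjusted p = 0.0238), and at an adjusted p under 0.05 with no fold threshold 4 of 9 members passed, where 3.07% of all genes did. Smc1b read 452, 408 and 430.1 TPM in controls and 194, 229 and 383 TPM under IUHG, and Rec8 read 88.4, 86.5 and 88.9 TPM in controls and 68.6, 53.1 and 71.2 TPM under IUHG. Both were below controls in every IUHG library, at -0.74 for Smc1b and -0.46 for Rec8, and neither passed. Sgo2a was above controls, at 50.6, 47.5 and 98.7 against 31, 27.9 and 29.9 TPM (1.04, adjusted p = 0.0814), while Stag3 (-0.02) and Sun1 (0.05) overlapped. In all, 6 members lay below controls and 1 above without overlap, 7 of 9, where 32.9% of genes tested had groups apart in either direction. The members' median was -0.74, and the all-gene median of 0.14 fell to 0.02 with median-of-ratios scaling; measured from that 0.14, Majin was at -2.58 and Rad21l at -3.08. Genes listed as markers of other cells, and Xist, were apart as well. Pecam1 read 50.4 to 69.1 TPM in these controls and 88.4 to 208 TPM under IUHG. It was the only 1 of 5 endothelial markers at 1 TPM or more in these libraries. In control whole gonads it read 71.9 to 75.7 TPM, so it does not count endothelial cells in PGCs. The interstitial Dcn read 5.8 to 10.9 and 0.65 to 3 TPM. The fetal Leydig Star read 0.801 to 0.978 and 2.25 to 3.67 TPM and Xist 0.26 to 0.406 and 0.738 to 1.03 TPM. Interstitial markers summed to 11 to 16.9 TPM in controls and 6.99 to 10.4 TPM under IUHG, and fetal Leydig markers to 1.02 to 2.27 and 2.52 to 7.16 TPM, both apart. The sums of germ cell, Sertoli and blood markers overlapped. The part of these markers in the result was not tested.

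The E13.5 female counts turned on single libraries, so each call is given without them. Leaving out IUHG replicate 3, the library with most expressed genes, 5 of 9 members fell, where 2.75% of 15843 genes passed: Rad21l (-3.38), Majin (-2.39), Terb1 (-2.33), Terb2 (-1.89) and Smc1b (-1.02). Sgo2a was then at 0.71, and Stag3 went from -0.02 to -0.41. Without control replicate 1, 2 or 3, Majin had adjusted p = 0.0223, 0.0223 and 0.0203 and Rad21l 0.0741, 0.0756 and 0.0755, so neither passed, and without IUHG replicate 1 or 2 Rad21l had 0.03 and 0.0349. Majin kept a log2 fold change between -2.60 and -2.33 and Rad21l one between -3.38 and -2.69 in these fits. With every gene tested, neither passed, and with a pseudocount of 0.1 Rad21l did not. Terb1 and Terb2 passed with FPKM, with median-of-ratios scaling, with a block on replicate number and with all PGC groups in one fit, and Sgo2a in the last of these.

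Rad21, which was lower in control E13.5 females than in the E12.5 pools, was high in E13.5 IUHG females. It read 22, 22.3 and 22.3 TPM in controls and 118, 57.8 and 129.6 TPM under IUHG, and rose by 4.58-fold (log2 fold change 2.06, adjusted p = 0.00991). It was the only one of 5 subunits of mitotic or shared cohesin to pass, where 0.514% of all genes did. Without IUHG replicate 3 it was at 1.85, and it did not pass without IUHG replicate 1 or control replicate 1, 2 or 3 (adjusted p = 0.0345, 0.0741, 0.0814 and 0.0713), with a pseudocount of 0.1 or with every gene tested. Rec8 then made up 35.1% to 47.9% and Rad21l 0.119% to 0.979% of the kleisin TPM under IUHG, against 71.6% to 73.0% and 8.65% to 10.5% in controls. Among the 13 genes of the envelope bridge and meiotic telomeres, 12 were tested and Spdya alone passed, falling from 101 to 17.5 TPM (log2 fold change -2.50), with Kash5 at 15.7 and 4.79 TPM (-1.54, adjusted p = 0.0202). None of 11 genes for cohesin loading, release and cleavage, 8 for centromere protection or 7 for shelterin passed. Mael, a germ cell marker, fell as well (log2 fold change -1.06, adjusted p = 0.00922), while the other 4 markers did not pass. The 3 reference genes of meiotic entry all fell: Stra8 from 1832 to 428 TPM, Meiosin from 196 to 26.9 TPM and Sycp3 from 1445 to 336 TPM. Without IUHG replicate 3 the log2 fold changes were -1.93 for Stra8, -3.11 for Meiosin, -2.07 for Sycp3, -2.73 for Spdya, -1.03 for Mael and -1.42 for Kash5, and all 6 passed. With every gene tested, or without control replicate 2, none of the 6 passed, and without control replicate 1 or 3 only Sycp3 did. Mael also did not pass with FPKM (adjusted p = 0.0142), with median-of-ratios scaling (0.0139) or without IUHG replicate 1 or 2, and Meiosin and Spdya did not without IUHG replicate 2.

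**Figure D3:**
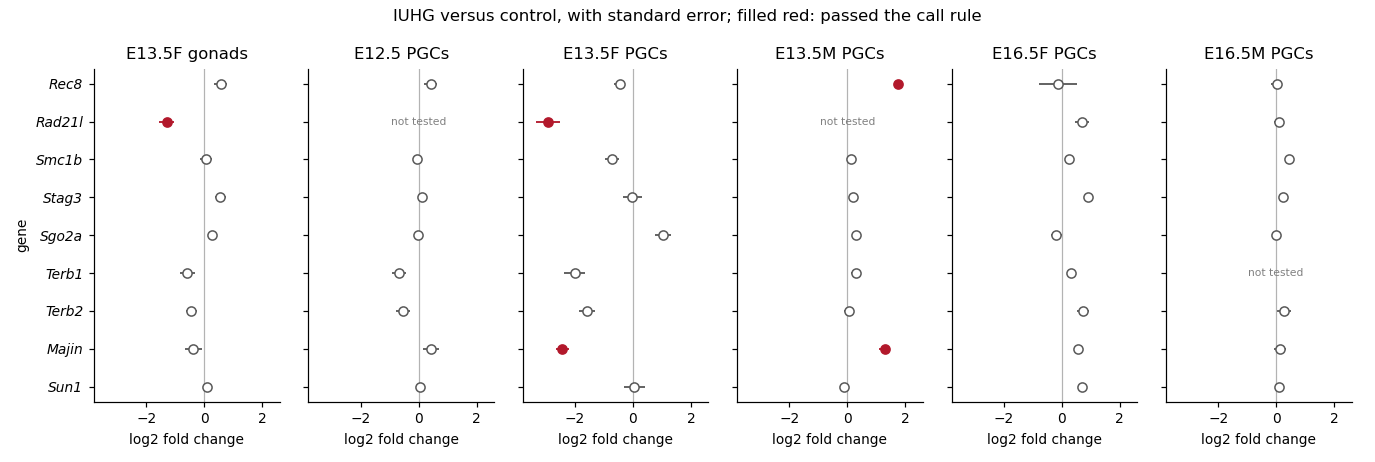
Log2 fold change of TPM + 1, IUHG against control, of each member in each of the 6 comparisons, with its standard error; filled red points passed the call rule and members under the filter are written as not tested. Rad21l and Majin stood lowest in E13.5 female PGCs, and Rec8 and Majin highest in E13.5 male PGCs.

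In E13.5 males, IUHG went with more Rec8 and Majin. Rec8 read 4.09, 4.37 and 4.05 TPM in control libraries and 17.7, 15.3 and 16.6 TPM in IUHG libraries, and Majin read 0.797, 0.877 and 0.602 TPM in controls and 4.4, 2.58 and 3.09 TPM under IUHG. All IUHG libraries lay above all controls for both, yet the male IUHG level of Majin was still under that of IUHG females. Rec8 rose 3.96-fold (log2 fold change 1.76, adjusted p = 2.48e-06) and Majin 4.42-fold (1.29, adjusted p = 0.000686), 2 of the 8 members tested, where 3.92% of 14463 genes passed. Above controls without overlap were 5 of 8 members, where 47.2% of all genes had groups apart in either direction. The other 6 tested lay between -0.11 for Sun1 and 0.30 for Terb1, and Rad21l was at 0 in 2 of 3 libraries of each group. Stra8 rose from 8.73, 13 and 11.7 to 175, 138 and 134 TPM and Meiosin from 2.98 to 8.54 TPM, whereas Sycp3 read 121 and 107 TPM. Rec8 passed in every leave-out and alternative; Majin did not pass with FPKM (0.95) or with every gene tested. Fetal Leydig markers summed to 32.8 to 49.1 TPM in these controls, led by Insl3, and to 0.857 to 4.93 TPM under IUHG, with 4 of 5 passing as lower. Y-linked transcripts summed to 151 to 183 TPM in controls and 116 to 119.6 TPM under IUHG, germ cell markers to 2266 to 2508 and 1849 to 2047 TPM, and interstitial markers to 7.61 to 8.61 and 2.67 to 4.22 TPM. Most of the Y-linked sum was Eif2s3y (140.1 to 171 and 106 to 109.8 TPM), Pecam1, nearly all of the endothelial sum, read 46.2 to 52.1 and 73 to 83.4 TPM, and the part of these shifts in the result was not tested.

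At E16.5, 7 of 9 members had higher means in IUHG females than in controls, and Rec8 and Sgo2a had lower ones with overlap. Stag3 read 220.5, 199.6 and 241 TPM in controls and 419.7, 407 and 420.1 TPM under IUHG, and Majin read 150.3, 156 and 173 TPM in controls and 208, 247 and 247 TPM under IUHG. Sun1 read 52.2, 53.1 and 68.9 TPM in controls and 100.4, 89.4 and 92.1 TPM under IUHG. For all 3, every IUHG library was above every control, and 6 of 9 members were so, where 28.9% of genes tested had groups apart. None reached the call rule, 0 of 9 in limma, where 0.742% of 18738 genes did, with 7 of 9 members and 4268 of all genes at an unadjusted p under 0.05. With no fold threshold 4 of 9 passed at an adjusted p under 0.05, where 5.67% of genes did: Stag3 (0.92, adjusted p = 0.00135), Majin (0.54, adjusted p = 0.0238), Sun1 (0.69, adjusted p = 0.0265) and Smc1b (0.26, adjusted p = 0.0488). Rad21l read 23.3, 29.2 and 48.9 TPM in controls and 60.2, 43.9 and 56 TPM under IUHG, with overlap, and Rec8 read 9.32, 2.42 and 1.27 TPM in controls and 6.47, 0.822 and 3.55 TPM under IUHG. Log2 fold changes were 0.75 for Terb2, 0.32 for Terb1, 0.70 for Rad21l, -0.12 for Rec8 and -0.19 for Sgo2a, and Rec8 turned to 0.51 without control replicate 1 and to 0.44 without IUHG replicate 2. The members' median was 0.54 against 0.04 for all genes, and none of the 42 other genes tested of the cohesin, centromere, envelope and shelterin lists passed. Interstitial markers summed to 22.8 to 66.9 TPM in controls and 87.2 to 122 TPM under IUHG, led by Dcn. Sertoli markers summed to 20.5 to 23.4 and 5.67 to 15.5 TPM. Most of that sum was Aard, at 18.4 to 19.1 and 4.21 to 15.4 TPM, which does not count Sertoli cells in PGCs. The genes at 1 TPM or more numbered 16864 to 17096 per control library and 16102 to 16855 per IUHG library. IUHG replicate 3 held 293 TPM of blood markers and 3.25 gigabases, against 5.2 to 38.5 TPM and 5.1 to 5.19 gigabases in the rest. The part of these differences was not tested.

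In E16.5 males, 0 of 8 members tested passed in limma, where 0.201% of 20928 genes did, and 2 of 8 members and 5008 of all genes were at an unadjusted p under 0.05. Smc1b read 54.8, 52 and 50.9 TPM in controls and 67.1, 73.1 and 74.7 TPM under IUHG, without overlap (0.44, adjusted p = 0.0172). Stag3 read 117, 131 and 119.9 TPM in controls and 152, 138 and 143 TPM under IUHG, also apart (0.23, adjusted p = 0.0865). Rec8, higher under IUHG at E13.5, read 19.7, 24.2 and 21.7 TPM in controls and 16.51, 21.4 and 30.3 TPM under IUHG here, with the control libraries inside the IUHG range. The other 6 tested, Rec8 among them, lay between -0.00 for Sgo2a and 0.28 for Terb2, with only Sun1 apart (0.10). The share of all genes with groups apart is not given for E16.5 males. Terb1 was not tested, at a mean of 0.369 TPM in controls and 0.82 TPM under IUHG, with groups apart. Fetal Leydig markers summed to 42.4 to 188 TPM in these controls and 12.2 to 33.9 TPM under IUHG, Sertoli markers to 103 to 132 and 36.3 to 66.4 TPM, led by Cst9 in controls and Aard under IUHG, Y-linked transcripts to 78.1 to 98.8 and 116 to 123 TPM, led by Eif2s3y, interstitial markers to 22.2 to 40.7 and 42.2 to 45.1 TPM and endothelial markers to 22.7 to 24.6 and 18.5 to 20.5 TPM, led by Tie1, Xist read 0.0858 to 0.167 and 0.208 to 0.286 TPM, and their part was not tested.

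Interaction tests asked whether the IUHG difference depended on sex or stage. Between the sexes at E13.5 it did for 5 of 9 members, where 9.87% of 17372 genes passed: the female difference was below the male one by -3.73 for Majin (limma, adjusted p = 9.02e-06), -2.93 for Rad21l, -2.30 for Terb1, -2.22 for Rec8 and -1.63 for Terb2. Between the E13.5 and E16.5 females 5 of 9 passed, where 6.18% of 20560 genes did, these 5 upward: Rad21l by 3.63, Majin by 2.98, Terb2 by 2.33, Terb1 by 2.32 and Smc1b by 1.00, while Sgo2a went down without passing (-1.23, adjusted p = 0.0507). The E12.5 pools, not separated by sex, were the earlier stage for both sexes. Between E12.5 and E13.5 females, Rad21l (-2.98) and Majin (-2.87) passed, 2 of 9, where 2.76% of 17046 genes did. Rad21l was at or below 0.112 TPM at E12.5 and 0.198 TPM in E13.5 males. Majin had E12.5 means of 0.684 and 1.31 TPM. Log2 of TPM + 1 had little room to fall there. These 2 interactions, and that of Rad21l between the sexes, thus largely restate the E13.5 female differences. In males, Rec8 (1.34) and Terb1 (0.98) passed between E12.5 and E13.5, 2 of 8, where 8.51% of 15167 genes did, and Rec8 (-1.74) and Majin (-1.16) between E13.5 and E16.5, 2 of 9, where 17.2% of 21693 genes did. Between the sexes at E16.5 only Stag3 passed (0.68, adjusted p = 0.0069), 1 of 9, where 4.45% of 24025 genes did. These tests share libraries with one another.

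The interactions varied with the library left out and with the way of testing. Without E13.5 female IUHG replicate 3, 8 of 9 members passed between E13.5 and E16.5 females, where 9.64% of 20165 genes did, Sgo2a downward and the other 7 upward, and 6 of 9 between E12.5 and E13.5 females, where 6.5% of 16417 genes did, Sgo2a upward and the other 5 downward. With FPKM, with median-of-ratios scaling and with all PGC groups in one fit, Sgo2a and Stag3 also passed between E13.5 and E16.5 females, Sgo2a between E12.5 and E13.5 females and Smc1b between the sexes at E13.5. Between E12.5 and E13.5 females, Rec8, Terb1 and Terb2 were added with FPKM, Rec8 with median-of-ratios scaling and Smc1b and Terb1 in the one fit. Sgo2a passed in 3 of 12 leave-outs between E13.5 and E16.5 females and in 2 of 12 between E12.5 and E13.5 females. Between E13.5 and E16.5 males, Smc1b, which did not pass with all libraries, passed in 4 of 12. Between the sexes at E13.5, Majin, Rad21l, Terb1, Rec8 and Terb2 passed in all 12 leave-outs, and Smc1b and Sgo2a in 1 each. For Smc1b it was the leave-out of E13.5 female IUHG replicate 3 (-1.14, limma, adjusted p = 0.000149). The share of all genes that passed there ran from 5.08% to 20.9% over the 12 leave-outs. Without E16.5 female control replicate 3, 2 of 9 passed between the sexes at E16.5, where 4.49% of 24190 genes did. Between E13.5 and E16.5 females, Smc1b passed in that 1 leave-out of IUHG replicate 3, with adjusted p up to 0.096 in the other 11, and did not pass with every gene tested (0.125). Terb1 between E12.5 and E13.5 males passed without E12.5 control replicate 1 or E12.5 IUHG replicate 1, with adjusted p up to 0.106 in the other 10, and did not pass with every gene tested (0.11) or with a block on replicate number (0.0559), and with FPKM it was not tested. With all PGC groups in one fit, Stag3 between the sexes at E16.5 did not pass (adjusted p = 0.115), nor did Rec8 between E12.5 and E13.5 males (0.283) or between E13.5 and E16.5 males (0.0731), nor Terb1 between E12.5 and E13.5 males (0.188). Sun1 passed between the sexes at E16.5 with FPKM (adjusted p = 0.0418) and with median-of-ratios scaling (0.0443).

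Whole E13.5 female gonads, in which germ cells are a minority, showed one change among the members. Rad21l read 7.08, 11.3 and 7.61 TPM in controls and 4.78, 2.3 and 2.02 TPM under IUHG. All IUHG libraries lay below all controls, and Rad21l fell 2.86-fold (log2 fold change -1.30, limma, adjusted p = 0.0461), 1 of 9 members, where 0.627% of 18021 genes passed. Terb1 read 3.29, 7.35 and 4.94 TPM in controls and 4.16, 2.75 and 2.33 TPM under IUHG, Terb2 3.62, 6.7 and 4.11 TPM in controls and 3.36, 3.17 and 3.03 TPM under IUHG and Majin 9.23, 17.3 and 11.3 TPM in controls and 14.6, 7.94 and 6.72 TPM under IUHG. These 3 were at -0.58, -0.44 and -0.37, and of them only Terb2 had groups apart. The share of all genes with groups apart is not given for gonads, so groups apart are described here without that comparison. Rec8 read 43.5, 78.2 and 74.5 TPM in controls and 122, 88.3 and 79.7 TPM under IUHG (0.58, adjusted p = 0.206), with IUHG above every control, as was Sgo2a (0.28). The other members lay between 0.08 for Smc1b and 0.56 for Stag3, and the members' median was 0.08 against 0.01 for all genes.

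The gonad call was close to its threshold. Without control replicate 1, the library with Y-linked and Sertoli transcripts, Rad21l was at -1.41 (adjusted p = 0.0606), Terb1 at -0.81, Majin at -0.55, Smc1b at -0.18 and Rec8 at 0.31, and no member passed, 0 of 9, where 0.605% of 18004 genes did. Rad21l also did not pass without control replicate 2 or 3 (adjusted p = 0.131 and 0.0937) or IUHG replicate 2 or 3 (0.142 and 0.112), nor with every gene tested or with a block on replicate number. With each library left out in turn, Terb2 ran from -0.58 to -0.22 and Stag3 from 0.38 to 0.71. Sgo2a ran from 0.24 to 0.32 and Sun1 from 0.02 to 0.17 in the same fits. Germ cell markers summed to 392 to 431 TPM in control gonads and 515 to 667 TPM under IUHG, led by Dazl, with 0 of 5 passing, while blood markers summed to 11339.6 to 14352 TPM and 7351 to 8649 TPM, led by Hba-a1, with 2 of 6 passing as lower, and interstitial markers to 2433 to 2673 and 1819 to 1954 TPM. In whole gonads, fewer cells of a type and less RNA per cell cannot be told apart. Relative to the mean of Ddx4 and Dazl in the same library, the all-gene median moved from 0.01 to -0.35, and Rad21l was at -1.66, Terb1 at -0.94, Terb2 at -0.80, Majin at -0.73, Rec8 at 0.22 and Stag3 at 0.20, while Smc1b, Sun1 and Sgo2a turned to -0.28, -0.26 and -0.08.

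**Figure D4:**
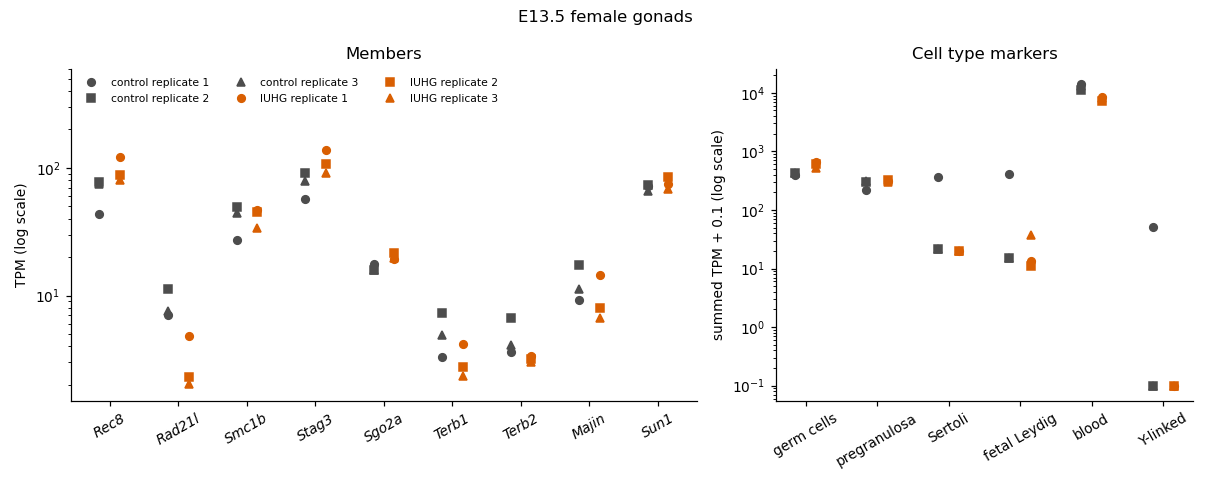
TPM of the members (left) and summed TPM of cell type markers (right, 0.1 added) in each of the 6 libraries of E13.5 female gonads, on log axes, with a marker shape for each replicate number. Rad21l lay lower in the 3 IUHG libraries than in the 3 controls, and Y-linked, Sertoli and fetal Leydig transcripts were high in control replicate 1.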

How the data were processed

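The deposited tables, 1 per library, gave TPM, FPKM and coverage (signal, the mean depth over the bases of a gene) per gene, as the authors made them. For gonads the authors aligned reads with HISAT2 and quantified them with StringTie; the positions in these tables are those of GRCm38. For PGCs the authors aligned Smart-seq2 reads with STAR and name featureCounts for counts and StringTie for FPKM; these tables have the layout of StringTie, and which tool made their TPM is not stated. Aligned bases were estimated per library as the most common ratio of coverage to FPKM among genes above 5 FPKM. This gave 3.89 to 4.95 gigabases in gonads and 3.25 to 8.32 in PGCs. That ratio held for 11.6% to 11.8% of such genes in gonads and 44.6% to 47.2% in PGCs. Counts are not given.

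TPM was summed over gene IDs that share a symbol, and 2393 older symbols of the gonad tables were renamed (Ccdc155 to Kash5 and Gm4969 to Meiosin among the lists). Majin in gonads is a sum over 2 contigs, the chromosome and a patch, and its gonad level is uncertain. Gcna, a planned germ cell marker, is in no table and was not analysed here.

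Log2 of TPM + 1 was fitted with limma 3.58.1 in R 4.3.3 for each comparison, on genes with a mean of at least 1 TPM in a group, with Benjamini-Hochberg adjustment, two-sided. Thresholds were an adjusted p under 0.05 in gonads and 0.01 in PGCs with an absolute log2 fold change over 1, and 0.05 for interactions. The code was tested on simulated data in which 200 genes were changed by a log2 of 2. Over the comparisons it recovered 61% to 99.5% of them and called up to 14 unchanged genes. A true change of that size could therefore fail to pass. Each library is a pool, so p-values measure spread between pools. Tables and figures used Python 3.11.15, numpy 2.4.6, pandas 2.3.3 and matplotlib 3.10.9.

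Members are given by value or by range in each comparison of a pair of groups, and in interactions where they passed, with up to 4 genes per related list (the largest changes among those that passed, and paralogs of members), and the 2 genes most like each member among those with a mean of at least 5 TPM in a PGC group. Members and lists were chosen with earlier results of these data known; they, the thresholds and the alternatives were written down before the deposited tables were opened, except where said. Alternatives were FPKM, median-of-ratios scaling, a pseudocount of 0.1, no filter, a replicate block, no fold threshold, all PGC groups in one fit, centring gonads on Ddx4 and Dazl, and leaving out each library. A group left with 2 libraries was fitted with the spread pooled over the groups.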

Additional observations from a re-analysis of the deposited data

Results flagged for a closer look

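The IUHG difference of 17 member results differed between the groups compared, by an interaction term in limma at a Benjamini-Hochberg adjusted p under 0.05, two-sided; 6 interactions were tested, with 53 tests of members, and they share libraries. Over all genes, 2.76% and 6.18% passed in the female stage tests, 8.51% and 17.2% in the male ones and 9.87% and 4.45% between the sexes at E13.5 and E16.5, beside 2 of 9, 5 of 9, 2 of 8, 2 of 9, 5 of 9 and 1 of 9 members. Values are differences between a pair of log2 fold changes, and their causes were not tested.

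Between E12.5 PGCs and E13.5 female PGCs the difference moved down by log2 -2.98 for Rad21l and -2.87 for Majin. Between E12.5 and E13.5 male PGCs it moved up by 1.34 for Rec8 and 0.98 for Terb1.

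Between E13.5 and E16.5 female PGCs it moved up by 3.63 for Rad21l, 1.00 for Smc1b, 2.32 for Terb1, 2.33 for Terb2 and 2.98 for Majin. Between E13.5 and E16.5 male PGCs it moved down, at -1.74 for Rec8 and -1.16 for Majin.

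Female less male at E13.5, it was -2.22 for Rec8, -2.93 for Rad21l, -2.30 for Terb1, -1.63 for Terb2 and -3.73 for Majin. Female less male at E16.5, it was 0.68 for Stag3.

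With all PGC groups in one fit, the results for Stag3, for Rec8 in both male stage comparisons and for Terb1 between E12.5 and E13.5 males did not pass, and Smc1b between E13.5 and E16.5 females passed in 1 of 12 fits with 1 library left out.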

How the results depend on the processing

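Over 2440 member values under the alternatives, none changed direction once called: 2247 kept their sign and their side of the threshold, 61 no longer passed, 71 passed newly and 61 that passed neither way changed sign. Summing the gene IDs of a symbol or taking the highest one, an alternative chosen after seeing the data, left all 156 member values on their side.

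The count of members that passed was formed 138 times with all libraries. It changed by more than 1.5-fold, or from or to 0, in the 28 cases below, and by less in 16; the share of all genes that passed in the same fit is in brackets. With FPKM it was 4 in place of 2 in E13.5 female PGCs (1.29% in place of 0.514%), 1 in place of 2 in E13.5 males (2.63%, 3.92%), 3 in place of 5 from E13.5 to E16.5 in control females (29.7%, 28.2%), and in the interactions 6 in place of 2 (E13.5 females with E12.5; 4.99%, 2.76%), 1 in place of 2 (E13.5 males with E12.5; 12.3%, 8.51%) and 2 in place of 1 (sexes at E16.5; 5.85%, 4.45%). With median-of-ratios scaling it was 4 in E13.5 females (0.902%), 3 from E13.5 to E16.5 in control females (27.4%), 4 in the interaction of E13.5 females with E12.5 (3.54%) and 2 in that of the sexes at E16.5 (3.71%). With every gene tested it was 0 in gonads (0.0149%), 0 in E13.5 females (0.0027%), 1 in E13.5 males (0.981%) and 1 in the interaction of E13.5 males with E12.5 (1.5%), where more genes were adjusted over. With a pseudocount of 0.1 it was 1 in E13.5 females (0.43%). At an adjusted p under 0.05 with no fold threshold it was 4 in E13.5 females (3.07%), 4 in E16.5 females (5.67%), 1 in E16.5 males (6.01%), 3 from E12.5 to E13.5 males (60.9%) and 9 from E13.5 to E16.5 males (81.4%). With all PGC groups in one fit it was 5 in E13.5 females (8.2%), and in the interactions 5 and 0 with E12.5 for E13.5 females and males (10.2% and 1.98%), 1 between E13.5 and E16.5 males (4.36%) and 0 between the sexes at E16.5 (10%).

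A block on replicate number gave 0 members in gonads (0.305%), 4 in E13.5 females (1.31%) and 1 in the interaction of E13.5 males with E12.5 (7.29%). Libraries with the same number had residual r from -0.0842 to 0.124, and only in 1 of 6 comparisons, E13.5 males, was each closest to its own number, so the numbers were not read as pairs.

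Leaving out 1 library at a time, the counts ran from 0 to 1 in gonads (all genes 0.211% to 0.605%), from 0 to 5 in E13.5 females (0.00605% to 2.75%), and in the interactions from 2 to 6 (E13.5 females with E12.5; 1.02% to 6.5%), 1 to 2 (E13.5 males with E12.5; 4.94% to 10.4%), 4 to 8 (E13.5 with E16.5 females; 2.83% to 9.64%) and 1 to 2 (sexes at E16.5; 1.77% to 7.24%). No member passed in such a fit at E12.5 (all genes 0.0434% to 0.26%), in E16.5 females (0.0579% to 0.631%) or in E16.5 males (0.0807% to 0.137%). The causes of the changes in counts were not tested. Depth is known as aligned bases only, and no counting error is given.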
